A study of Mus musculus with 10 samples.

Results

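The genes of MHC class II presentation were followed across 5 tissues and 2 diets of aged mice. The set was defined by symbol as 9 genes: the class II chains H2-Aa, H2-Ab1 and H2-Eb1, the loading factors H2-DMa, H2-DMb1, H2-Oa and H2-Ob, the invariant chain Cd74 and the transactivator Ciita. Every probe set of the array that named exactly 1 of these symbols was taken, which gave 16 probe sets for 8 of the 9 genes, out of 18193 genes on the array. H2-DMb1 had no probe set of its own. It shared its probe sets with H2-DMb2, and the 3 probe sets that name a member together with another gene were not counted as members. H2-Aa had 4 probe sets, H2-Ab1 and Ciita 3 each, H2-DMa 2, and H2-Eb1, H2-Oa, H2-Ob and Cd74 1 each.

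The yogurt group was 10 male ICR mice, an outbred stock, that ate the purified diet AIN-93 with 1 to 2% LB81 yogurt from 8 months of age to 28 months of age. The control group was 9 male ICR mice of the same age on AIN-93 without yogurt. All mice of both groups were housed singly under specific-pathogen-free conditions. RNA of spleen, liver, distal colon, jejunum and ileum was pooled in equal amounts within each group, so that each tissue was measured on 1 array for each diet (10 arrays), and a difference between diets within a tissue has no replicate check. The 2 arrays of a tissue correlated at 0.991 to 0.994 (Spearman, all probe sets). Distal colon, ileum, jejunum and liver carried their defining markers. Hoxb13, of the hindgut, stood in distal colon at 11.52 in the yogurt pool, against 11.78 in the control pool, and in no other tissue above the array medians. Fabp6 was highest in ileum and Gata4 in jejunum. Tff1 and Gast, of the stomach, were highest in jejunum too. Tff1 had 11.43 there in the yogurt pool, against 12.09 in the control pool, and Gast 6.21, against 7.69. In a fit over all arrays 6 of 7 hepatocyte markers were called higher in liver than in gut, where 9.24% of all probe sets were. All 10 exocrine pancreas markers were called higher in jejunum than in ileum, where 4.01% of all probe sets were called in either direction. The array medians, 5.42 to 5.49 on the log2 scale, served as each array's floor: a lower value was raised to it, and a gene was called measured in a tissue where at least 1 of its 2 arrays lay above it. Each gene was read from the brightest of its probe sets, by the average of all 10 arrays.

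MHC class II molecules are pairs of an alpha and a beta chain that carry peptides of proteins taken up from outside to the surface of dendritic cells, macrophages and B cells, where helper T cells read them. H2-Aa and H2-Ab1 encode the pair of the A molecule, and H2-Eb1 the beta chain of the E molecule, whose alpha chain is the product of H2-Ea. Cd74, the invariant chain, fills the groove of new class II molecules until the DM molecule (H2-DMa with H2-DMb1 or H2-DMb2) exchanges its remnant for peptide, and the DO molecule (H2-Oa with H2-Ob) restrains DM, chiefly in B cells. Ciita binds to a complex of RFX, CREB and NF-Y factors on the X and Y boxes of class II promoters and switches the genes on together.

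The X and Y boxes are the sequence that these genes are known to share, so the promoters are shown first. RefSeq promoter windows of mouse assembly GRCm38.p6, from 250 bases before to 50 bases after the annotated start, were at hand for 6 of the 9 genes, 7 windows in all. A match of CNNGNAAC followed on the same strand, 30 to 40 bases further on from start to start, by GATTGG was found in 5 of the 6 genes. The genes were H2-Oa, H2-DMb1, H2-Ob, H2-Aa and H2-Eb1, and both windows of H2-DMa lacked the pair. Of all 32851 promoter windows, searched on both strands, 41 or 0.125% held the pair at that distance anywhere in the window, these genes included. GATTGG alone was in 16.1% and CNNGNAAC alone in 39.1%. The letters and the distance were settled after these promoters had been read, so the match is a description of them. The stretches below run 5′ to 3′ on the strand of the gene, from 105 to 31 bases before its start. Capitals mark the 2 motifs.
H2-Oa: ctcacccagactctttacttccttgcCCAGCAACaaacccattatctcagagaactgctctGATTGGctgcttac
H2-DMb1: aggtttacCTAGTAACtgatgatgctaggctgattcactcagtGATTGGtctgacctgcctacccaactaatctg
H2-Ob: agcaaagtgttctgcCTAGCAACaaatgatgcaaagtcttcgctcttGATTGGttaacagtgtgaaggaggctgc
H2-Aa: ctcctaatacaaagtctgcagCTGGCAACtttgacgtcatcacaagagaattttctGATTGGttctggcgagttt
H2-Eb1: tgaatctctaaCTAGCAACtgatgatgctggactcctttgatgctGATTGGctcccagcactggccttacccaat
They lie at chr17:34092274-34092348, plus strand, for H2-Oa. H2-DMb1 has chr17:34153086-34153160, plus strand, and H2-Ob has chr17:34238800-34238874, plus strand. H2-Aa has chr17:34287854-34287928, minus strand, and H2-Eb1 has chr17:34305762-34305836, plus strand. The motifs stood 35 bases apart in H2-Oa, H2-DMb1 and H2-Aa, 34 in H2-Eb1 and 32 in H2-Ob.

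The first comparison concerns where in the body the genes were expressed. All 8 genes were higher in spleen than in the mean of the 4 other tissues, and the class II chains, Cd74 and H2-DMa were lower in liver than in gut. The genes did not share 1 order of gut segments: the chains, Cd74 and the brightest probe set of H2-DMa stood highest in ileum among the 3 segments, while H2-Oa and H2-Ob stood highest in distal colon.

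**Figure D1:**
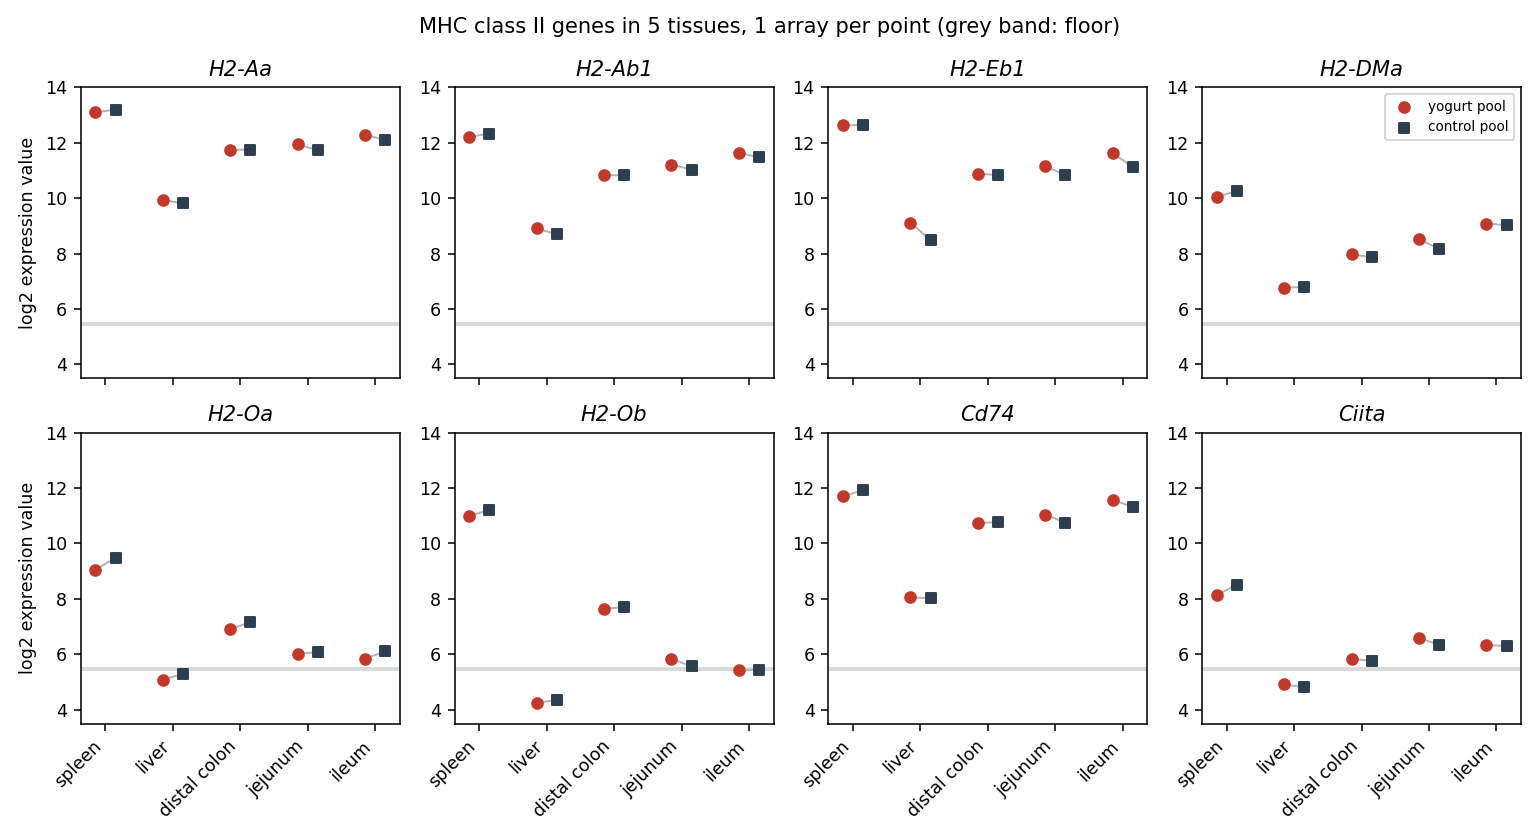
Log2 expression values of the 8 measured genes in 5 tissues, with 1 point per array, the yogurt pool left of the control pool, and the floor as a grey band. Spleen is the highest tissue in all 8 panels, and H2-Oa and H2-Ob have their second highest tissue in distal colon, where they lie between 6.92 and 7.70.

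The chains of the A molecule had the highest values on their probe sets in spleen. In the yogurt pools H2-Aa had log2 values of 13.09 in spleen, 9.93 in liver, 11.74 in distal colon, 11.94 in jejunum and 12.29 in ileum, against 13.20, 9.81, 11.75, 11.73 and 12.09 in the control pools of the same tissues. Spleen, ileum and liver were set apart from their neighbours on both diets, while the jejunum and distal colon values of H2-Aa overlapped. Its partner H2-Ab1 had 12.21 in spleen, 8.91 in liver, 10.83 in distal colon, 11.21 in jejunum and 11.64 in ileum in the yogurt pools, against 12.33, 8.70, 10.83, 11.02 and 11.47 in the control pools. The 5 tissues of H2-Ab1 did not overlap, in the order spleen, ileum, jejunum, distal colon, liver.

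The beta chain of the E molecule and the invariant chain followed the same order. H2-Eb1 had 12.63 in spleen, 9.12 in liver, 10.88 in distal colon, 11.15 in jejunum and 11.63 in ileum in the yogurt pools, against 12.64, 8.50, 10.83, 10.84 and 11.11 in the control pools. Its gut values overlapped between ileum and jejunum and between jejunum and distal colon. Cd74 had 11.69 in spleen, 8.05 in liver, 10.75 in distal colon, 11.04 in jejunum and 11.57 in ileum in the yogurt pools, against 11.93, 8.02, 10.76, 10.75 and 11.31 in the control pools. For Cd74 the step from ileum up to spleen was small, 0.37 between the tissue means, and the step from distal colon down to liver large, 2.72.

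The loading factors did not share 1 order of tissues. H2-DMa, the alpha chain of DM, had 10.04 in spleen, 6.77 in liver, 7.98 in distal colon, 8.52 in jejunum and 9.09 in ileum in the yogurt pools, against 10.27, 6.80, 7.86, 8.17 and 9.03 in the control pools, with no overlap between tissues. Its other probe set, 1459872_x_at, gave another order: spleen and jejunum were its highest tissues and overlapped, and in distal colon both arrays lay under the floor. H2-Oa, the alpha chain of DO, had 9.05 in spleen, 5.08 in liver, 6.92 in distal colon, 6.02 in jejunum and 5.84 in ileum in the yogurt pools, against 9.48, 5.29, 7.15, 6.08 and 6.10 in the control pools. Its beta partner H2-Ob had 10.98 in spleen, 4.24 in liver, 7.64 in distal colon, 5.84 in jejunum and 5.42 in ileum in the yogurt pools, against 11.21, 4.35, 7.70, 5.56 and 5.44 in the control pools. Both DO genes were under the floor in liver, and H2-Ob was under it in ileum as well. Ciita had 8.13 in spleen, 4.92 in liver, 5.83 in distal colon, 6.58 in jejunum and 6.33 in ileum in the yogurt pools, against 8.52, 4.80, 5.77, 6.34 and 6.30 in the control pools, so that the transactivator was under the floor in liver and close to it in distal colon.

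A limma fit on tissue and diet over all 26905 probe sets above the floor on at least 2 arrays tested these differences, with all 16 member probe sets among them. Calls needed a difference of 2-fold or more together with a Benjamini-Hochberg adjusted p below 0.05. Spleen was called higher than the mean of the 4 other tissues for 14 of the 16 probe sets, where 11% of all probe sets were called higher. The 8 genes were all called. H2-Ob differed most, by a log2 difference of 5.03 ± 0.094 (SE), at least 32.6-fold (limma, adjusted p = 6.01e-09), and Cd74 least, by 1.53 ± 0.094, 2.89-fold (limma, adjusted p = 2.29e-06). Between these lay H2-Oa, at least 8.83-fold, Ciita, at least 4.99-fold, H2-DMa, 4.37-fold, H2-Eb1, 4.36-fold, H2-Aa, 3.32-fold, and H2-Ab1, 3.23-fold. The folds of H2-Oa, H2-Ob and Ciita are lower bounds relative to the floor, because H2-Ob was at it in ileum and liver and H2-Oa and Ciita were at it in liver. They move with its height: under a 65th percentile floor the differences of H2-Ob, H2-Oa and Ciita were 4.24, 2.57 and 1.71 on the log2 scale, and all were still called.

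Liver was called lower than the mean of the 3 gut segments for 9 of the 16 probe sets, where 12.7% of all probe sets were called lower. Of the 8 genes 5 were called. On the log2 scale liver minus gut was -2.99 for Cd74, -2.36 for H2-Ab1, -2.27 for H2-Eb1, -2.05 for H2-Aa and -1.66 for H2-DMa. For H2-Oa, H2-Ob and Ciita the liver arrays were at the floor, so their fitted differences of -0.92, -0.85 and -0.76 were limited by it. With the values as deposited, all 3 passed the threshold, at -1.16, -1.97 and -1.33.

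Between gut segments, distal colon against ileum gave 2 member probe sets called higher and 1 called lower, where 7.46% of all probe sets were called in either direction. H2-Ob was higher in distal colon by at least 4.57-fold, since both ileum arrays were under the floor, or 2.19 ± 0.12 on the log2 scale with ileum at the floor (SE; limma, adjusted p = 8.83e-06). Under a 65th percentile floor this difference was 1.05, still called. H2-Oa was higher in distal colon by 1.06 ± 0.12 (limma, adjusted p = 0.000272). The call of H2-Oa lay just past the 2-fold limit and missed it under quantile normalization, at 0.95, and under a 65th percentile floor, at 0.41. H2-DMa fell by 1.13 in distal colon relative to ileum. The other members differed by -0.73 for H2-Ab1, -0.69 for Cd74, -0.52 for Ciita, -0.51 for H2-Eb1 and -0.44 for H2-Aa, none of them 2-fold. The difference of Ciita turned to 0.093 under a 65th percentile floor.

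Against jejunum, distal colon was called for H2-Ob, higher by 1.97 ± 0.12 (SE; 1.05 under a 65th percentile floor), and for the second H2-DMa probe set, lower by at least 2.35-fold, where 9.88% of all probe sets were called. The H2-DMa probe set that represents the gene differed by -0.42. H2-Oa, at 0.99, stood just under the 2-fold limit. Jejunum against ileum gave no call among the 16 probe sets, where 4.01% of all probe sets were called. An unadjusted p under 0.05 was reached by 10 of the 16 and by 40.5% of all. In these fits each tissue has 1 pool per diet, so the error is the variation of the diet ratio between tissues of the same mice, not the spread between mice.

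Markers of the cells that carry class II were set beside this order. Of the 14 B cell markers listed 13 were matched. In the same fit 9 of the 13 were called higher in distal colon than in ileum and none lower, where 7.46% of all probe sets were called in either direction, with a median of 1.14 over the list. In spleen 12 of 13 were called higher, where 11% of all probe sets were. This was not particular to B cells: 9 of 14 macrophage markers were called higher in spleen and 2 lower. Of the dendritic cell markers 6 of 10, and of the T cell markers 6 of 7, were called higher there. Ms4a1, which encodes CD20, had 8.65 in distal colon and 4.83 in ileum in the yogurt pools, against 8.66 in distal colon and 5.27 in ileum in the control pools, where the ileum values were under the floor. Cd79b, a part of the B cell receptor, had 8.12 in distal colon and 6.15 in ileum in the yogurt pools, against 8.36 and 6.15 in the control pools. Of 10 dendritic cell markers in the fit none was called between distal colon and ileum, a count near the 7.46% of all probe sets. Of 14 macrophage markers 1 was called lower in distal colon and 0 higher, also near that share. The part of B cell content in the distal colon values of H2-Oa and H2-Ob was not tested, and in these bulk samples fewer cells of a type and less RNA per cell cannot be told apart. H2-DMb2, the beta chain gene beside H2-DMb1, had 3 probe sets of its own. All 3 were called higher in distal colon than in ileum, by 1.15 to 1.35. The probe sets that H2-DMb1 shares with H2-DMb2 went the other way, by their values alone. The brighter had 8.36 in distal colon and 9.27 in ileum in the yogurt pools, against 8.31 and 9.05 in the control pools. The other had 6.33 in distal colon and 6.95 in ileum in the yogurt pools, against 6.14 and 7.07 in the control pools.

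**Figure D2:**
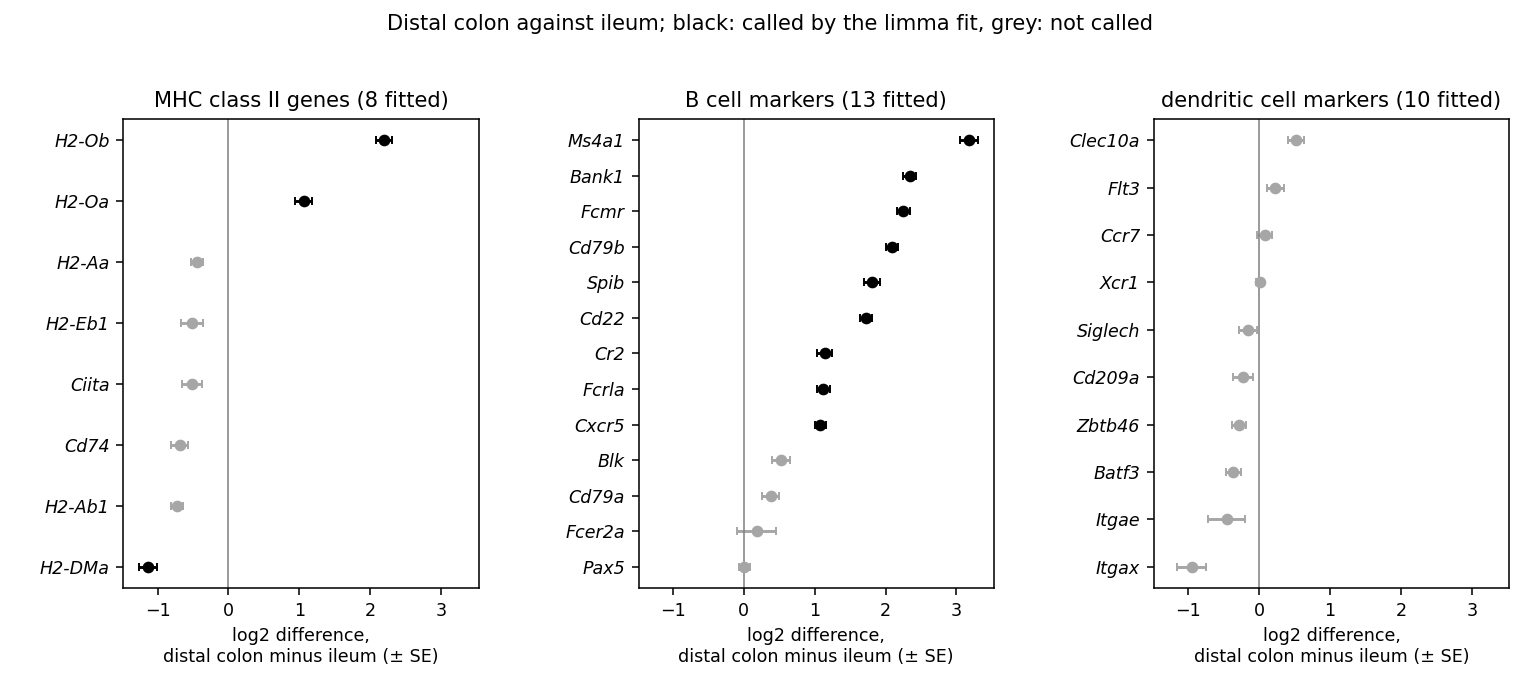
Fitted log2 difference of distal colon minus ileum with its SE for the 8 class II genes, 13 B cell markers and 10 dendritic cell markers, with called genes in black. H2-Ob, at 2.19 with ileum at the floor, and H2-Oa, at 1.06, lie to the right, with 9 called B cell markers, and H2-DMa at -1.13 lies to the left.

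The second comparison asks how the genes stood in the yogurt pools relative to the control pools. Most measured genes of the set stood higher in the yogurt pools of jejunum, ileum and liver, level in distal colon and lower in spleen, all by small amounts. In liver only 5 genes were measured, and of these Cd74, at 0.03, and H2-DMa, at -0.03, were level. The median log2 ratio of yogurt over control over the measured members was -0.23 in spleen, 0.12 in liver, 0.00061 in distal colon, 0.26 in jejunum and 0.17 in ileum. The medians over all measured genes were -0.048, -0.026, -0.014, -0.011 and -0.039 in the same tissues. Among the probe sets that represent the genes, the ratio with the greatest size was that of H2-Eb1 in liver, 1.54-fold. By these probe sets 1 of 5 members in liver lay beyond 1.5-fold in either direction, where 0.838% of all measured genes did, and none in the other tissues. There the share of all genes was 1.73% in spleen, 1.03% in distal colon, 0.88% in jejunum and 0.504% in ileum.

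**Figure D3:**
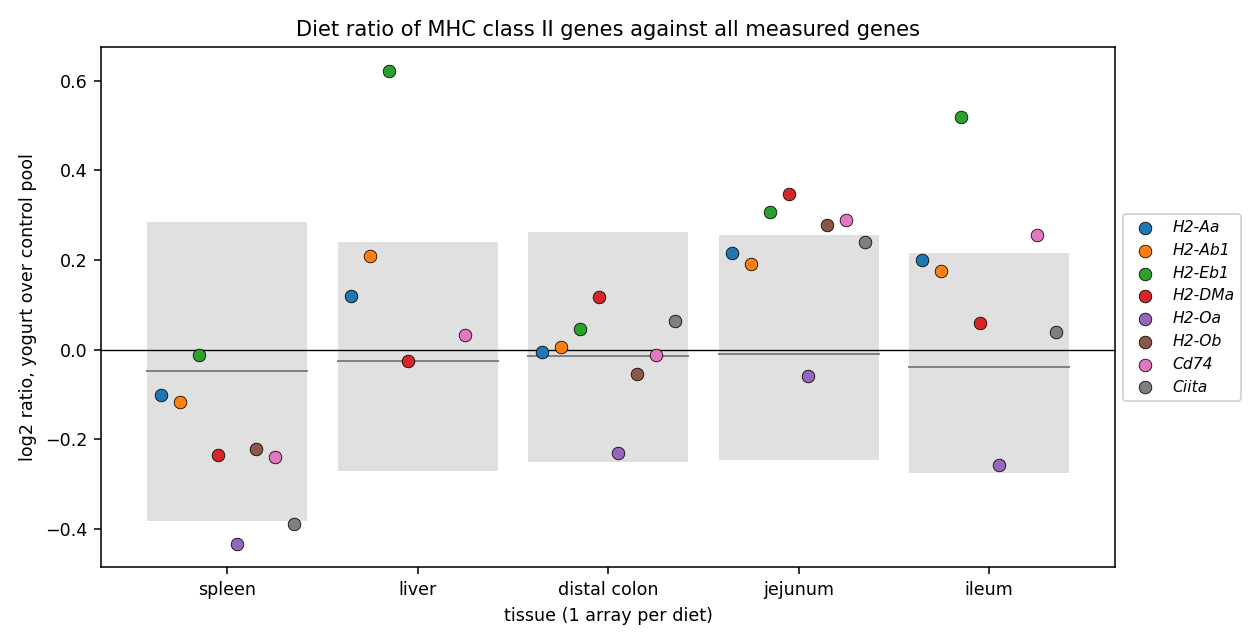
Log2 ratio of yogurt over control for each measured class II gene in each tissue (1 array per diet), with the 5th to 95th percentile of all measured genes as a grey box and their median as a grey line. H2-Eb1 lies above the box in ileum and liver at 0.52 and 0.62, and all 8 genes lie below 0 in spleen.

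In spleen 0 of 8 genes were higher in the yogurt pool, where 38.5% of all 11882 measured genes were higher, and all 16 probe sets were lower. H2-Oa had the lowest ratio, -0.43, followed by Ciita at -0.39, and 3.43% and 4.71% of the measured genes had ratios lower than theirs. Cd74 was at -0.24, H2-DMa at -0.24, H2-Ob at -0.22, H2-Ab1 at -0.12 and H2-Aa at -0.10. H2-Eb1, at -0.01, was level between the pools. The second Ciita probe set, 1421210_at, had 7.59 in the yogurt pool, against 8.16 in the control pool, a ratio of -0.57.

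Other lists of spleen were set beside this one, in a tissue where 38.5% of all measured genes were higher in the yogurt pool. Of 12 macrophage markers measured in spleen 12 were lower in the yogurt pool, with a median ratio of -0.32. C1qc and C1qb, subunits of complement C1q made by tissue macrophages, were at -0.61 and -0.54. Of 10 dendritic cell markers 8 were lower, with a median of -0.34, among them Itgae at -0.86 and Itgax, which encodes CD11c, at -0.69. Summed over the matched list on the linear scale, the macrophage markers came to 15141 in the yogurt pool, against 17443 in the control pool, and the dendritic cell markers to 1413 in the yogurt pool, against 1830 in the control pool. Clec4f and Vsig4, markers of liver macrophages, and the dendritic cell product Ccl22 were under the floor in both spleen pools. The 13 B cell markers gave 8 lower and 5 higher, with a median of -0.04 and a sum of 20088 in the yogurt pool, against 20765 in the control pool. Fcer2a, the low-affinity IgE receptor of B cells, was the B cell marker with the lowest ratio, -1.19. Markers of plasma cells, which have shut down class II, were lower for 8 of 8, with a median of -0.30. The part of these cell types in the class II ratios was not tested.

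In jejunum 7 of 8 genes were higher in the yogurt pool, where 46.5% of all 12279 measured genes were higher. H2-DMa had a ratio of 0.35, H2-Eb1 0.31, Cd74 0.29, H2-Ob 0.28, Ciita 0.24, H2-Aa 0.22 and H2-Ab1 0.19, and H2-Oa alone was below 0, at -0.06. The 95th percentile of all measured genes was 0.26, so that the first 4 lay just beyond it. The H2-Ob ratio rests on 5.84 in the yogurt pool, against 5.56 in the control pool, both near the floor. Over all probe sets, 13 of the 14 measured were higher.

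The jejunum pools also differed in markers of other cells, in a tissue where 46.5% of all measured genes were higher in the yogurt pool. The 10 exocrine pancreas markers were all higher in the yogurt pool, with a median of 1.47 and a sum of 71358 in the yogurt pool, against 26426 in the control pool. Smooth muscle markers were higher for 8 of 8, with a median of 0.19. Dendritic cell markers were higher for 6 of 7, with a median of 0.16 and a sum of 1127 in the yogurt pool, against 997 in the control pool. Macrophage markers were higher for 8 of 10, with a median of 0.11 and a sum of 5366 in the yogurt pool, against 5146 in the control pool. B cell markers were higher for 4 of 6, with a median of 0.04 and a sum of 751 in the yogurt pool, against 743 in the control pool. Pax5, Cr2, Fcer2a, Blk, Fcrla, Cxcr5 and Fcmr, all B cell markers, were under the floor in both jejunum pools. Whether any of these moved the class II values was not tested.

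In ileum 6 of 7 measured genes were higher in the yogurt pool, where 37.9% of all 12303 measured genes were higher, and H2-Ob was at the floor. H2-Eb1 had a ratio of 0.52, 1.43-fold, and 99.7% of measured genes had a lower ratio. Cd74 was at 0.26, H2-Aa at 0.20, H2-Ab1 at 0.17, H2-DMa at 0.06 and Ciita at 0.04. H2-Oa, at -0.26, went the other way, and 6.31% of measured genes lay below it. Macrophage markers were higher for 8 of 10, with a median of 0.12, dendritic cell markers for 5 of 8, with a median of 0.07, and B cell markers for 2 of 6, with a median of -0.11. Adipocyte markers were higher for 5 of 6 in this tissue, with a median of 0.75, and smooth muscle markers for 8 of 8, with a median of 0.15.

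In distal colon 4 of 8 genes were higher in the yogurt pool, where 45.3% of all 12369 measured genes were higher. The ratios of H2-Aa, H2-Ab1 and Cd74 were within 0.02 of 0, H2-Eb1 was at 0.05, Ciita at 0.06 and H2-DMa at 0.12. H2-Oa, at -0.23, had the lowest ratio, and H2-Ob was at -0.05. In the same tissue 11 of 12 measured B cell markers were lower in the yogurt pool, with a median of -0.14 and a sum of 2089 in the yogurt pool, against 2283 in the control pool. Adipocyte markers were higher for 5 of 5, with a median of 1.62, and smooth muscle markers lower for 8 of 8, with a median of -0.26.

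In liver 4 of 5 measured genes were higher in the yogurt pool, where 42.2% of all 12166 measured genes were higher, and H2-Oa, H2-Ob and Ciita were at the floor. H2-Eb1 had 9.12 in the yogurt pool, against 8.50 in the control pool, a ratio of 0.62, and 99.6% of measured genes had a lower ratio. H2-Ab1 was at 0.21, H2-Aa at 0.12, Cd74 at 0.03 and H2-DMa at -0.03. Macrophage markers, which in liver include those of Kupffer cells, were higher for 8 of 14, with a median of 0.01. The largest ratios among them were 0.51 for Spic, 0.40 for Cd163, 0.33 for Fcgr1 and -0.21 for C1qb. Clec4f and Vsig4 were at -0.03 and 0.01. Plasma cell markers were lower for 6 of 7, with a median of -0.17, among them the antibody genes Igha at -1.56 and Jchain at -0.95, and Mzb1 at -0.65. Epithelial markers were higher for 3 of 5, with a median of 0.06, Epcam at 0.58 and Cdh1 at 0.46. The part of these cells in the H2-Eb1 ratio of liver was not tested.

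Fits also asked for a diet difference common to several tissues, with the ratio in each tissue as the replicate. Over the 5 tissues none of the 16 member probe sets was called at an adjusted p under 0.05, where 7 of 26905, or 0.026%, were called, and 3 had an unadjusted p under 0.05, where 9.5% of all did. H2-Eb1 had the largest difference, 0.30 ± 0.095 (SE; limma, adjusted p = 0.452), with a ratio above 0 in 4 of 5 tissues. H2-Oa was at -0.19 ± 0.075 (limma, adjusted p = 0.496), below 0 in the 4 tissues where it was measured. The chains H2-Ab1 and H2-Aa were at 0.09 and 0.09. Over the 3 gut segments no probe set of the array was called, or 0%, with 10.2% at an unadjusted p under 0.05, and 4 of the 16 member probe sets were at that level. H2-Eb1 was at 0.29 ± 0.10 and H2-Oa at -0.18 ± 0.064 in that fit (limma, adjusted p = 0.486 for both). A further fit, chosen after the values had been seen, set the diet ratio in spleen against that in the 4 other tissues, and all 16 member probe sets were lower in spleen. It called 1 of the 16, where 0.569% of all probe sets were called, and none of the 8 that represent the genes. Of those 8, Ciita had the lowest adjusted p, at a difference of -0.48 ± 0.13 (limma, adjusted p = 0.196). Under a 65th percentile floor the Ciita difference was -0.38 and was called. With the floor used here the called probe set was 1443783_x_at of H2-Aa, at -1.01, which lay under the floor on both arrays of liver, distal colon and jejunum. Its call was lost with the values as deposited, at -1.41 (limma, adjusted p = 0.254), and without jejunum, ileum or distal colon, at adjusted p of 0.0771, 0.103 and 0.0632.

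The 2 chains of the E molecule had diet ratios of opposite sign in jejunum and ileum. This difference between probe sets was not tested. The pools were of different mice of an outbred stock, so diet and genotype cannot be told apart in these ratios. In distal colon H2-Eb1 was nearly level between the pools, at 0.05. H2-Eb1 encodes the beta chain and H2-Ea, which is outside the defined set, the alpha chain. Of the 3 probe sets of H2-Ea 1 was under the floor on every array. Of the others, 1422891_at had 11.06 in spleen, 8.47 in liver, 9.27 in distal colon, 9.29 in jejunum and 8.98 in ileum in the yogurt pools, against 11.42, 8.33, 9.62, 9.63 and 9.73 in the control pools. It was lower in the yogurt pool in all tissues but liver. The probe set 1422892_s_at was lower in all 5 tissues, with ratios of -0.45 in spleen, -0.44 in liver, -0.46 in distal colon, -0.56 in jejunum and -1.33 in ileum. In ileum it had 7.73 in the yogurt pool, against 9.06 in the control pool, 2.52-fold lower, in the tissue where H2-Eb1 was 1.43-fold higher. Over the 5 tissues the fitted diet difference of 1422892_s_at was -0.65 ± 0.13 (SE; limma, adjusted p = 0.300), which did not pass the threshold, nor did that of 1422891_at, -0.33 ± 0.11 (limma, adjusted p = 0.452). H2-Eb2, a beta chain gene beside H2-Eb1, had a ratio of -0.50 in jejunum and 0.17 in ileum.

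**Figure D4:**
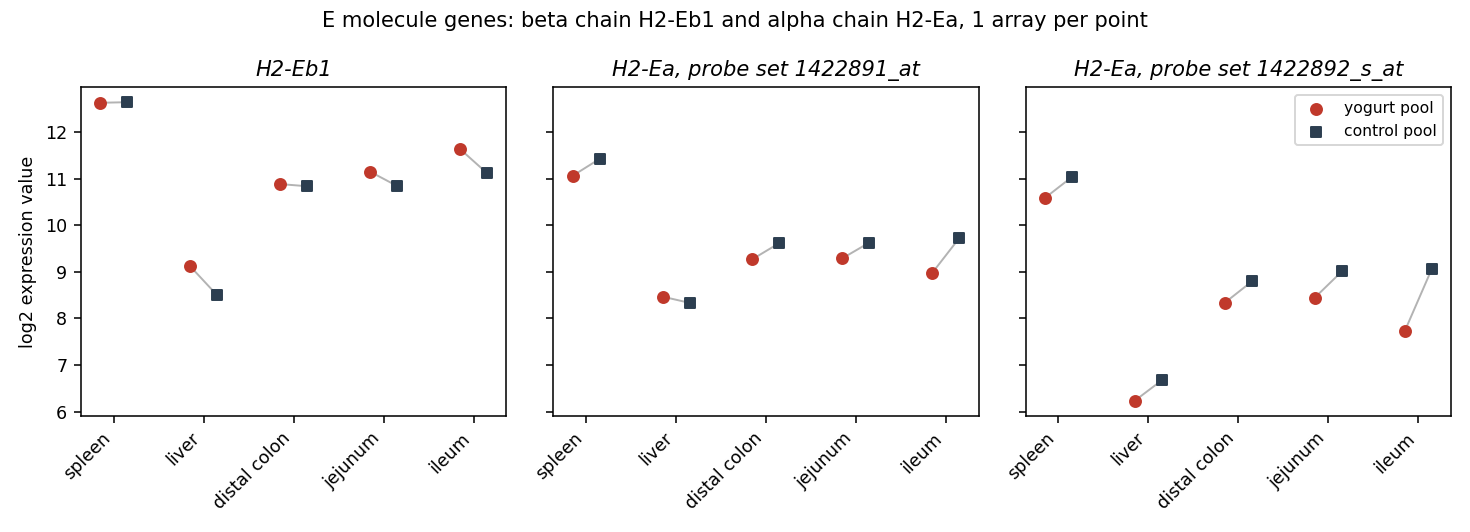
Log2 expression values of H2-Eb1 and of the 2 measured probe sets of H2-Ea in 5 tissues, with 1 point per array and the yogurt pool left of the control pool. In ileum H2-Eb1 stands at 11.63 in the yogurt pool, against 11.11 in the control pool, and H2-Ea (1422892_s_at) at 7.73 in the yogurt pool, against 9.06 in the control pool.

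Genes that work before, beside and after class II were described by the same counts. The proteases and lysosomal proteins that prepare class II peptides were near 0 in liver and gut, with medians between -0.04 and 0.01. In spleen, where 38.5% of all measured genes were higher, 11 of 13 were lower in the yogurt pool, with a median of -0.15. Lgmn, the protease legumain, was at -0.56, the ubiquitin ligase Marchf1, which removes class II from the surface, at -0.44, and Ctsl, cathepsin L, at -0.39. The 7 RFX, NF-Y and CREB factors of the promoter had medians between -0.10 and -0.0038 in the 5 tissues, and Rfx5 in spleen was at -0.39. The costimulatory genes in spleen were lower for 5 of 6, with a median of -0.30, among them Cd83 at -0.46 and Cd86 at -0.45.

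The interferon gamma pathway, which induces Ciita in cells that do not already express it, was higher in the yogurt pool of jejunum for 13 of 15 measured genes, where 46.5% of all were, with a median of 0.22. The GTPases Igtp and Iigp1, both induced by interferon, were at 0.77 and 0.66. In distal colon 11 of 15 were higher, where 45.3% of all were, with a median of 0.12, Cxcl9, a chemokine that draws T cells, at 0.84 and Iigp1 at 0.69. The pathway's median was 0.04 in ileum, 0.03 in liver and -0.10 in spleen. Class I presentation, the parallel route that serves cytotoxic T cells, had medians of -0.05 in spleen, 0.01 in liver, 0.02 in distal colon, 0.05 in jejunum and -0.06 in ileum. None of the genes of these lists was called in the diet fits over 5 tissues or over gut.

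**Figure D5:**
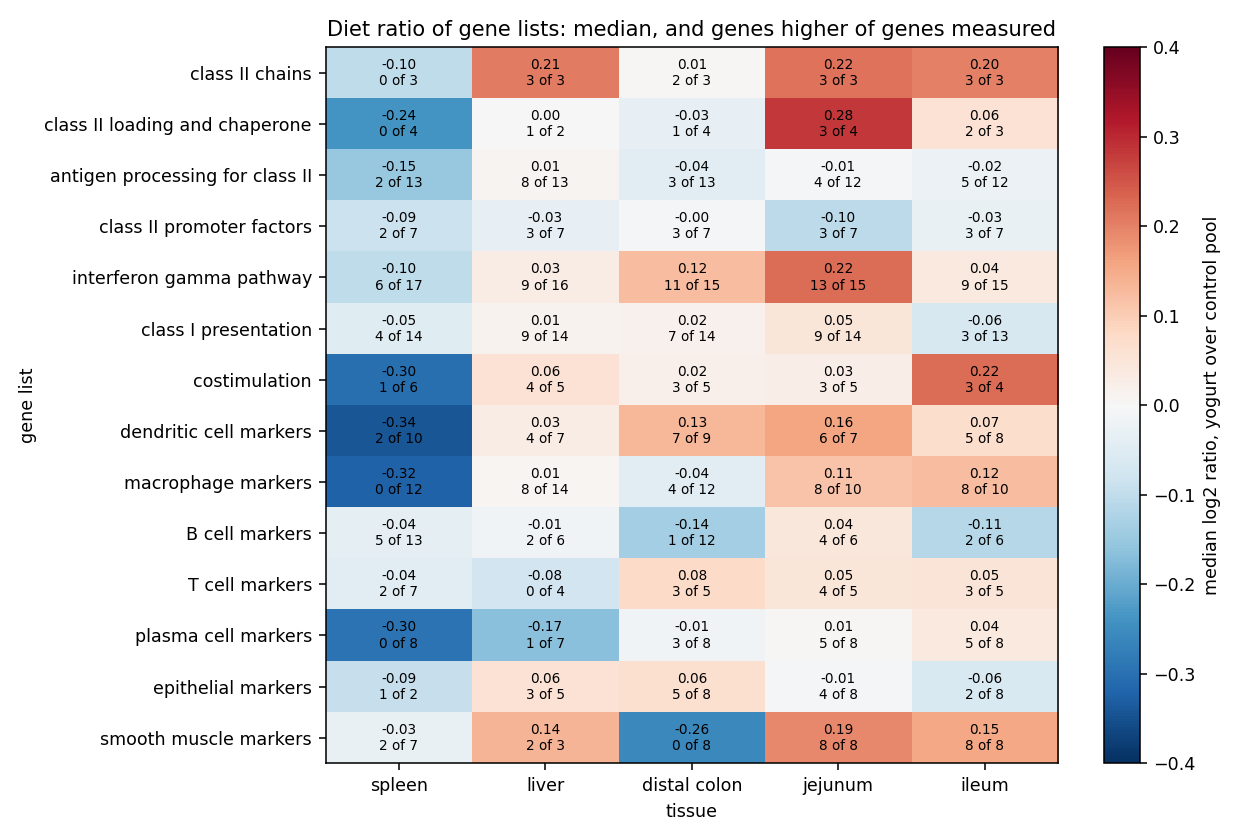
Median log2 ratio of yogurt over control for 14 gene lists in 5 tissues, with the number of genes higher in the yogurt pool of those measured under each median. The class II chains and loading genes, dendritic cell and macrophage markers and costimulatory genes have medians from -0.10 to -0.34 in spleen, and class I presentation stays between -0.06 and 0.05.

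Within the set, the members were compared with the mean of the other members over the 10 arrays, which share tissues and pools, as a description on the values as deposited, with no floor. Removing the mean of each tissue leaves 1 diet ratio per tissue, so a correlation after that step rests on 5 values. After the mean of each tissue was removed, the Pearson correlation was 0.93 for Cd74, 0.89 for Ciita and 0.89 for H2-Aa. It was 0.86 for H2-Ab1, 0.82 for H2-DMa and 0.69 for H2-Ob. H2-Eb1, at 0.39, and H2-Oa, at -0.06, followed the others least. With values raised to the floor, an alternative chosen after the values had been seen, these were 0.47 and 0.08, still the lowest of the 8. Among 6455 other genes with an SD of at least 0.5, those most like the mean of the members over the 10 arrays were Rgs10 (0.998), Cdc25b (0.996), Tln1, Vbp1, Il7r, Tia1, Nfatc3 and Atp8b2 (0.991). In all 8, spleen had the highest mean and liver the lowest, while the order of the gut segments varied. After the mean of each tissue was removed the nearest were Icam1 (0.990), Cp (0.990), Col3a1, Bbs7, Trpc1, Ly96, Arhgap17 and C2 (0.975). They were picked as the highest of 6455 genes on 5 values each, with no test. Of these 8, Bbs7 lay under the floor on 6 arrays and Trpc1 and Ly96 on 3 each, and with values raised to the floor their correlations were 0.25, 0.88 and 0.80, so that for Bbs7 the likeness rests on values under the floor. With the floor 4 of these 8 and 5 of the first 8 were still among the nearest. Icam1, an adhesion molecule that T cells bind on presenting cells, had diet ratios of -0.24 in spleen, 0.11 in liver, 0.02 in distal colon, 0.23 in jejunum and 0.17 in ileum.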

How the data were processed

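The deposited values are log2 expression values per probe set of the Affymetrix Mouse Genome 430 2.0 array, 45101 per array with 64 controls. MAS5 and affy are listed in the submitters' processing notes without version or role. The summary method and the scaling stay unknown, so nothing was rescaled. Per the labels' protocols, 100 ng of each RNA pool was amplified. Names came from the platform annotation, updated by gene number through RefSeq (GRCm38.p6). Of the probe sets 34945 had 1 symbol, 932 had several and were assigned to no gene, and 9160 were unnamed here. Those with the suffix x_at or s_at may also bind related transcripts. The number of arrays limits the precision.

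The floor was the 50th percentile of each array, and diet ratios within a tissue carry no test. Fits used limma 3.58.1 in R 4.3.3 (lmFit, eBayes with a trend), with terms for tissue and diet. They had 4 residual degrees of freedom over 5 tissues, 2 over gut and 3 for the spleen difference. All but the fit of the spleen difference were also run on simulated data, which had no floor. Tissue pairs the 2 pools, so p-values measure variation between tissues of the same mice. The text names every member, the 8 nearest genes by each correlation, and up to 4 genes per list and tissue with the largest ratios. Ms4a1, Cd79b, H2-Ea, H2-Eb2, H2-DMb2, Hoxb13, Fabp6, Gata4, Tff1 and Gast are named beside the result they bear on. So are markers at the floor or of Kupffer cells, and all were chosen after their values were seen. The members, the lists and these rules were chosen with earlier results of these data known.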

Additional observations from a re-analysis of the deposited data

Results flagged for a closer look

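One probe set of H2-Aa, 1443783_x_at, had a diet ratio in spleen that differed from its ratio in the 4 other tissues by -1.01 on the log2 scale (SE 0.067; limma, adjusted p = 0.0102), in a fit chosen after the values had been seen. It had 6.07 in the yogurt pool, against 7.06 in the control pool of spleen. The values as deposited were 4.80 in the yogurt pool, against 4.09 in the control pool of jejunum, both under the floor, and 5.57 in the yogurt pool, against 4.45 in the control pool of ileum. The 3 other probe sets of H2-Aa differed by -0.23 to -0.26 in the same fit and were not called.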

How the results depend on the processing

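The median ratio of the members kept its direction in spleen, liver, jejunum and ileum under all alternatives of floor, scale and probe set, and the number of members higher stayed within 1.5 times. The medians ran from -0.26 to -0.17 in spleen, 0.073 to 0.15 in liver, -0.013 to 0.0056 in distal colon (both signs), 0.25 to 0.29 in jejunum and 0.12 to 0.20 in ileum. No member was called in the diet fits over 5 tissues or gut under any alternative run. The number of all probe sets called over 5 tissues was 37 with the values as deposited and 0 to 3 when each tissue was left out (0 without ileum, distal colon or liver, 1 without jejunum). Over gut it was 37 as deposited and 8 with a floor at the 65th percentile. For the spleen difference, 30 probe sets were called as deposited (0 of the member probe sets) and 422 with the 65th percentile floor (2 member probe sets). Both of these were of Ciita, among them the probe set that represents the gene, at -0.38. The count was 1155 with no filter (2 member probe sets), 966 under quantile normalization (2), 931 with centred arrays (3) and 37 without the trend. Leaving out a tissue gave 0 without jejunum, ileum or distal colon and 505 without liver, with 0 to 1 member probe sets. With the 65th percentile floor distal colon against jejunum had 1 member call, that of H2-Ob, and the H2-DMa probe set 1459872_x_at was not called. Some members changed sign. Over 5 tissues H2-Ob was at -0.025 as deposited, -0.062 with the 65th percentile floor and -0.00068 centred, and from -0.064 without jejunum to 0.062 without spleen. Ciita was at 0.013 as deposited and 0.012 under quantile normalization, and from -0.066 without jejunum to 0.091 without spleen. H2-DMa ran from -0.021 without jejunum to 0.12 without spleen. Over gut, H2-Ob was at -0.026 and Ciita at -0.0052 with the 65th percentile floor, and H2-Ob ran from -0.026 without jejunum to 0.14 without distal colon. With that floor jejunum minus ileum was -0.0071 for H2-Oa, H2-Ob and Ciita, all at the floor, and Ciita was at 0.093 in distal colon minus ileum and 0.10 in distal colon minus jejunum, against -0.52 and -0.66 with the floor used here. The cause of the other changes was not tested. Tissue is already the pair in the fits over 5 tissues and over gut, and no paired analysis was possible within a tissue because each diet had 1 array.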
